A study of Mus musculus with 20 samples.

Results

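Adding pembrolizumab to ABL503 was examined in CD8+ T cells sorted from tumours, by setting the 5 libraries of the Combination group against the 5 of the ABL503 group. MC38, a colon carcinoma line of the mouse, formed the tumours and was engineered to overexpress human PD-L1. They grew in C57BL/6 mice that carry human PD-1, human PD-L1 and human 4-1BB, and this genotype and this tumour are shared by every group. The Combination mice received pembrolizumab and ABL503, and the ABL503 mice received ABL503 alone. Pembrolizumab-only and Control groups, of 5 libraries each, make up the rest of the 20 libraries and were used for the spread and for one parallel comparison. Treatment began at a mean tumour volume of 150 to 200 mm3, and the cells were taken on day 4. Age, sex, dose and the content of the Control treatment are not given in the sources used here. All genes with at least 1 FPKM (fragments scaled by gene length and by library size) in at least 5 of the 20 libraries were compared, which were 11794 of the 45777 gene symbols in the table, 31149 of them above 0 in some library.

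Pembrolizumab is an antibody that binds human PD-1, the inhibitory receptor that activated T cells carry, and keeps it from its ligands. ABL503 is a bispecific antibody with one arm for PD-L1, the main ligand of PD-1, and the other for 4-1BB, a costimulatory receptor of the TNF receptor family that is induced when T cells are activated and signals through TRAF adaptors to NF-kB. In tumours, stem-like CD8+ T cells keep TCF1, lymphoid homing receptors and the capacity to renew, and effector-like cells derived from them carry perforin and granzymes. The comparison asked what differed when pembrolizumab was given in addition to ABL503. Binding of the antibodies to their targets was not measured in these data.

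Markers of the sort were present throughout. Cd8a stood between 308.5 and 458 FPKM in the Combination and between 282.7 and 345 FPKM in ABL503 (log2 change 0.26, SE 0.11, adjusted p = 0.18), while Cd4 was at most 0.63 FPKM in all 10. Csf1r, a defining macrophage receptor, was at 0 in the 5 Combination libraries and at most 0.1005 FPKM in the ABL503 libraries. Some genes of antigen-presenting cells were detected. The summed FPKM of 18 macrophage and monocyte markers, without Ly6c2 and Ccr2, which T cells express too, was 31.8 to 76.8 in the Combination and 74.2 to 149 in ABL503. Whether each library is a mouse of its own is not stated, so the p-values measure the spread between these libraries. Read depth is not given, and so the precision of each value rests on that spread.

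Of the 11794 genes, 534 (4.53%) passed an adjusted p of 0.05, of which 270 (2.29%) were higher in the Combination and 264 (2.24%) lower. The median log2 change was 0.57 among the genes called higher and -0.63 among those called lower, beside -0.03 over all genes tested. At least a doubling or halving on the log2(FPKM + 1) scale, an absolute change of 1, was reached by 26 higher and 54 lower genes. The 5 Combination and 5 ABL503 libraries did not overlap in 699 genes (5.93%), 376 of them higher (3.19%) and 323 lower (2.74%). The number of calls rested in part on single libraries. It was 263 without ABL503 2, 330 without ABL503 4, 339 without Combination 2, 348 without ABL503 3 and 353 without Combination 5. Without ABL503 1 it rose to 747. A fit of only the 10 libraries compared gave 379 calls, and no filter on low values gave 271. With each library rescaled to an equal sum, 39.9% of the calls were higher, against 50.6% with the values as deposited.

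**Figure D1:**
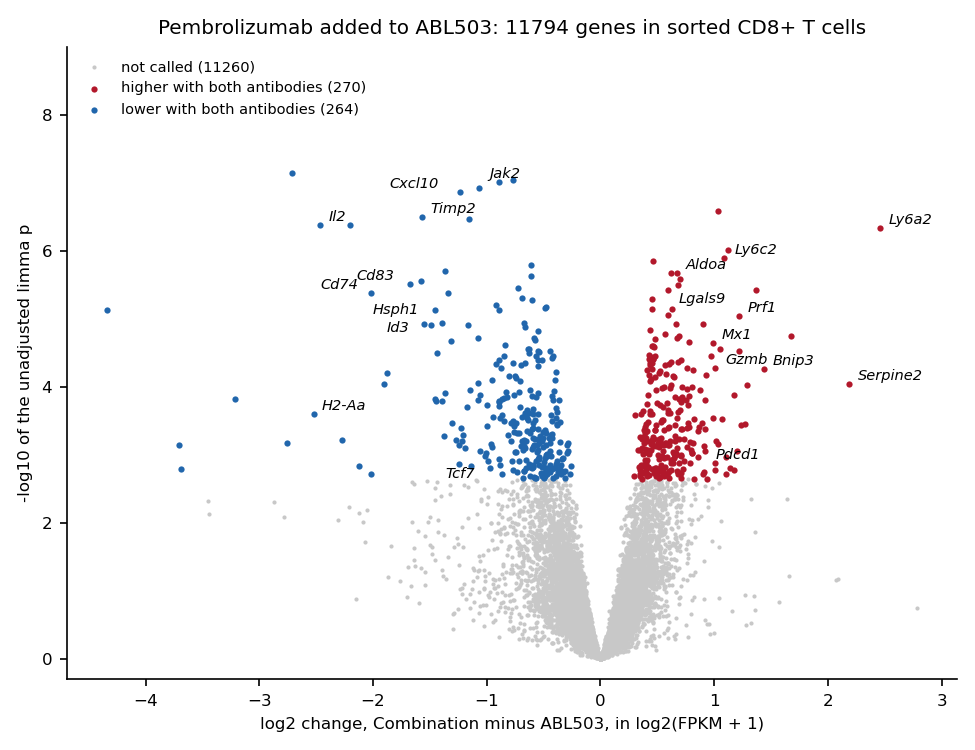
Each point is 1 of 11794 genes, with its log2 change between the Combination and ABL503 on the x axis and the negative log10 of the unadjusted limma p on the y axis. Red points are the 270 genes called higher and blue points the 264 called lower, and the largest falls (-4.34 for the receptor segment Traj7) are further from 0 than the largest called rise (2.46 for Ly6a2).

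**Figure D2:**
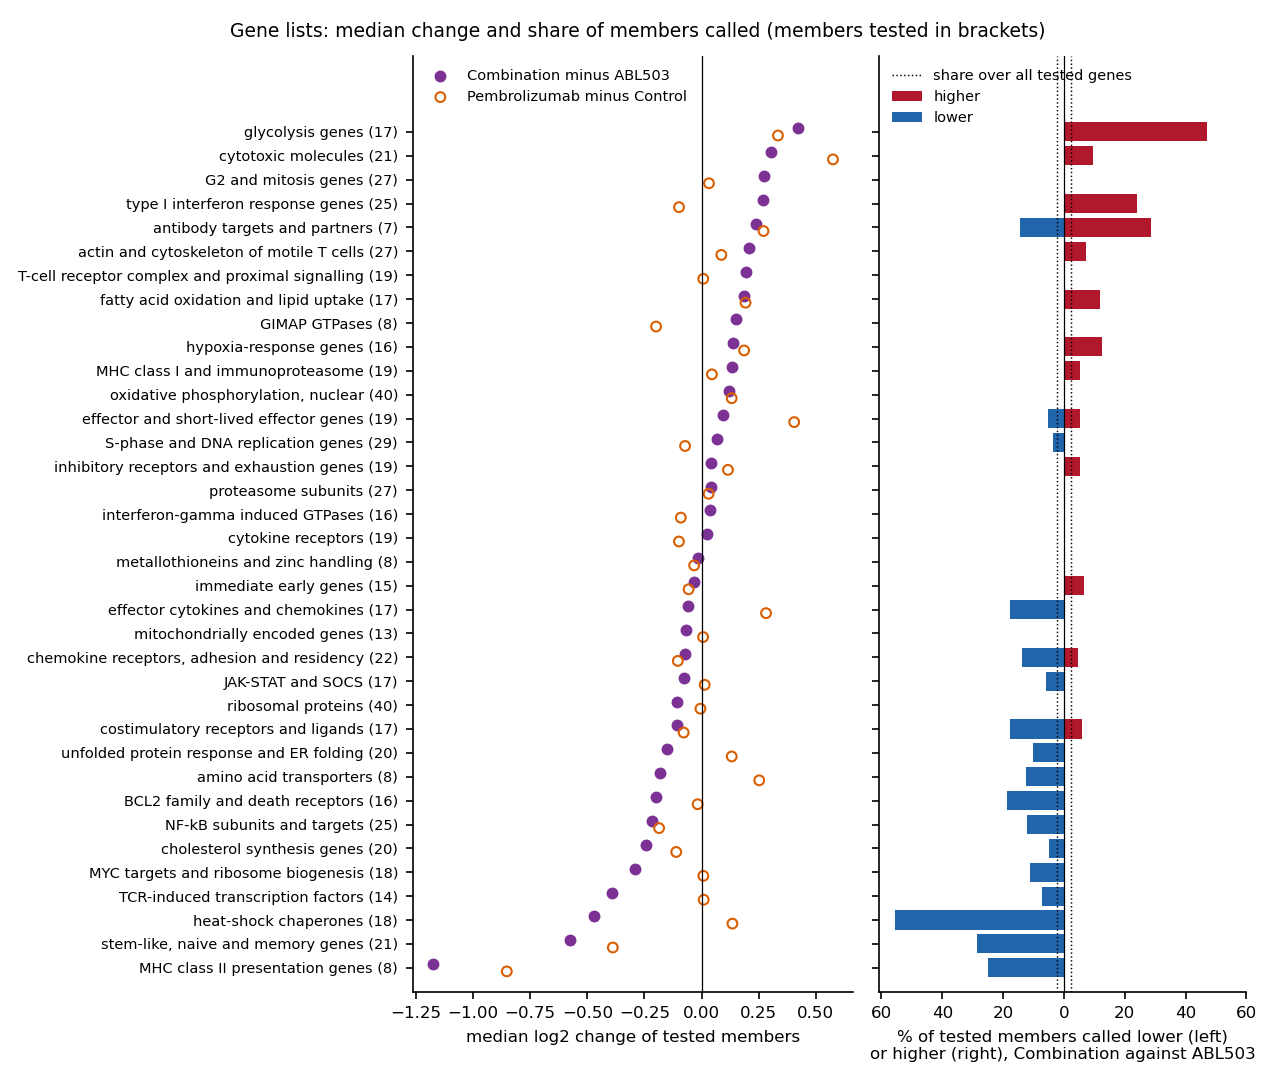
Left, the median log2 change of the tested members of each gene list in the Combination against ABL503 (filled) and in Pembrolizumab against Control (open). Right, the percentage of members called lower (blue, left of 0) or higher (red, right of 0) in the Combination against ABL503, with the shares over all genes tested, 2.24% lower and 2.29% higher, as dotted lines. Heat-shock chaperones have the highest share called lower, with 10 of 18, and glycolysis genes the highest share called higher, with 8 of 17.

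Prf1 and Gzmb, genes of the killing machinery, were among the largest rises. Prf1, which encodes the pore-forming protein perforin, had 32.7, 32.5, 27.9, 20.7 and 28.8 FPKM in the Combination libraries, against 18.9, 11.3, 11.1, 10.6 and 8.01 FPKM in the ABL503 libraries. The lowest Combination library lay above the highest ABL503 library, and the means were 28.5 ± 4.88 FPKM in the Combination and 12.0 ± 4.09 FPKM in ABL503 (SD, n = 5 libraries, as for every FPKM mean) (log2 change 1.22, SE 0.21, adjusted p = 0.0026). Gzmb, the apoptosis-inducing protease granzyme B, had 2836, 2830, 1401, 1545 and 1999 FPKM in the Combination libraries, against 1266, 1007, 942, 944 and 927 FPKM in the ABL503 libraries. These groups did not overlap either, although the Combination libraries fell into a pair near 2830 FPKM and 3 of 1401 to 1999 FPKM (log2 change 1.01, SE 0.20, adjusted p = 0.0059). Of 21 cytotoxic molecules tested, these were the 2 called higher, 0 were called lower and 19 were not called, with a median log2 change of 0.30. The shares over all genes tested were 2.29% higher and 2.24% lower. Granzyme A (Gzma) gave 0.77, SE 0.34, adjusted p = 0.20, and Gzmm, the granzyme M gene, gave -1.05, SE 0.33, adjusted p = 0.069, with the mean lower in the Combination. Nkg7, a cytotoxic granule protein, gave 0.50 (adjusted p = 0.071) and Gzmk, granzyme K, 0.80 (adjusted p = 0.11). Prf1 and Gzmb averaged 33.0 ± 4.34 and 2246 ± 301 FPKM in Pembrolizumab, so the Combination did not stand above pembrolizumab alone in its means.

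Of 19 effector genes tested, Ly6c2 was called higher and the transcription factor gene Bhlhe40 lower (-0.42, SE 0.12, adjusted p = 0.041), with a median of 0.09. Over all genes tested the shares were 2.29% higher and 2.24% lower. The call was lost for Bhlhe40 without Combination 1, 2, 3 or 4 or ABL503 2, 3, 4 or 5 (adjusted p up to 0.099). Ly6c2, part of the Ly6C antigen of effector and memory CD8+ T cells, had 3017, 2583, 3535, 2780 and 3356 FPKM in the Combination libraries, against 1538, 1297, 1325, 1450 and 1548 FPKM in the ABL503 libraries, without overlap (log2 change 1.09, SE 0.16, adjusted p = 0.0011). Ly6a2, the largest rise by size, averaged 39.9 ± 11.2 FPKM in the Combination and 6.68 ± 3.29 FPKM in ABL503 (log2 change 2.46, SE 0.34, adjusted p = 0.00049), and Ly6c1 averaged 92.5 ± 15.0 FPKM in the Combination and 41.9 ± 5.29 FPKM in ABL503 (log2 change 1.12, SE 0.16, adjusted p = 0.00095). Ly6a, which encodes Sca-1 and was chosen after its values were seen, gave 0.78, SE 0.17, adjusted p = 0.010. These genes are related in sequence, and reads may have been shared between them. Ccr2, the receptor through which cells follow the chemokine CCL2, had 41.4, 36.5, 56.5, 31.9 and 50.5 FPKM in the Combination libraries, against 23.8, 19.2, 18.3, 21.5 and 17.5 FPKM in the ABL503 libraries, without overlap (log2 change 1.05, SE 0.20, adjusted p = 0.0048). Ly6c2 and Ccr2 also serve as monocyte markers. The other 18 genes of that marker list summed to 31.8 to 76.8 FPKM in the Combination and 74.2 to 149 FPKM in ABL503. None of those tested was called. Which cells the Ly6c2 and Ccr2 transcripts came from was not tested.

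The remaining large rises had varied roles. Serpine2, a secreted inhibitor of serine proteases, averaged 65.9 ± 23.6 FPKM in the Combination and 15.3 ± 10.6 FPKM in ABL503 (log2 change 2.19, SE 0.45, adjusted p = 0.0082). Sv2c, a vesicle membrane glycoprotein, gave 1.17, SE 0.25, adjusted p = 0.010, and Impa2, an inositol monophosphatase, 1.04, SE 0.14, adjusted p = 0.00049. Plin2, which coats lipid droplets, gave 1.20, SE 0.31, adjusted p = 0.028, and the membrane protease Adam8 1.14, SE 0.31, adjusted p = 0.041. Vav1, a signalling protein downstream of the T-cell receptor, and the motility gene Coro1a were higher in all 5 Combination libraries than in any ABL503 library. Vav1, chosen after its values were seen, gave 0.68, SE 0.12, adjusted p = 0.0040, and Coro1a, which organises actin, 0.64, SE 0.13, adjusted p = 0.0068. Of 27 actin and cytoskeleton genes, Coro1a and Pfn1 (profilin, 0.42, SE 0.11, adjusted p = 0.030) were called higher and 0 lower, with a median of 0.21. The share called higher over all genes tested was 2.29%. Leaving out 1 library ended the calls of Plin2 without Combination 1, 2 or 5 or ABL503 2, 3 or 4 (adjusted p up to 0.079), Adam8 without Combination 1, 2, 4 or 5 or ABL503 2 or 5 (adjusted p up to 0.11) and Pfn1 without Combination 1 or 2 or ABL503 2, 3, 4 or 5 (adjusted p up to 0.078). Adam8 was also lost with equal sums (adjusted p = 0.051) and Pfn1 after quantile normalization (adjusted p = 0.090).

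Of the genes of the antibody targets, Tnfrsf9 and Pdcd1 were called higher and Cd274 was not called. Tnfrsf9, which encodes 4-1BB, had 248, 255, 229.9, 242 and 320.4 FPKM in the Combination libraries, against 161, 139, 167, 163 and 183 FPKM in the ABL503 libraries. All 5 Combination libraries were above all 5 ABL503 libraries (log2 change 0.66, SE 0.12, adjusted p = 0.0030). Pdcd1, which encodes PD-1, had 57.3, 87.7, 104, 70.0 and 72.2 FPKM in the Combination libraries, against 53.0, 31.6, 42.6, 39.6 and 36.2 FPKM in the ABL503 libraries, again without overlap (log2 change 0.92, SE 0.24, adjusted p = 0.028). Tnfsf9, the ligand of 4-1BB, moved the other way, with 18.4, 29.2, 8.70, 18.7 and 27.9 FPKM in the Combination libraries, against 27.9, 31.4, 51.4, 47.7 and 38.6 FPKM in the ABL503 libraries (log2 change -0.97, SE 0.27, adjusted p = 0.041), and here the groups overlapped. Cd274, the PD-L1 gene, averaged 17.3 ± 3.31 FPKM in the Combination and 24.0 ± 5.96 FPKM in ABL503 (log2 change -0.44, SE 0.17, adjusted p = 0.15). How transcripts of the humanised PD-1, PD-L1 and 4-1BB alleles were counted under these mouse symbols is not given in the sources used here. Leaving out 1 library ended the calls of Pdcd1 without Combination 2, 3 or 5 or ABL503 2, 3, 4 or 5 (adjusted p up to 0.080) and Tnfsf9 without Combination 1, 3 or 4 or ABL503 2, 3, 4 or 5 (adjusted p up to 0.10). Tnfsf9 was also lost when only the 10 libraries were fitted (adjusted p = 0.082).

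Other inhibitory receptors showed no call. Of 19 genes of inhibitory receptors and exhaustion, Pdcd1 was the only one called, beside 4.53% of all genes tested. The median log2 change over the list was 0.04. Havcr2, which encodes TIM-3, had 74.8, 85.6, 50.6, 62.8 and 74.4 FPKM in the Combination libraries, against 67.3, 60.0, 68.6, 72.0 and 65.9 FPKM in the ABL503 libraries (log2 change 0.04, SE 0.15, adjusted p = 0.91). Lag3 gave 0.02 (adjusted p = 0.98), Tigit 0.20 (adjusted p = 0.51), Ctla4 0.36 (adjusted p = 0.18) and Entpd1, the ectonucleotidase CD39, 0.55 (adjusted p = 0.25). Tox, a transcription factor of exhausted T cells, gave -0.05, SE 0.33, adjusted p = 0.96, and its Combination libraries ran from 1.74 to 15.6 FPKM.

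Among costimulatory ligands, Tnfsf8 and Tnfsf14 were called lower beside Tnfsf9. Tnfsf8, the CD30 ligand, had 5.10, 1.72, 5.03, 2.83 and 2.81 FPKM in the Combination libraries, against 7.87, 9.69, 12.3, 11.8 and 9.35 FPKM in the ABL503 libraries, without overlap (log2 change -1.37, SE 0.21, adjusted p = 0.0014). Tnfsf14, which encodes LIGHT, averaged 3.72 ± 1.52 FPKM in the Combination and 10.7 ± 2.19 FPKM in ABL503, also without overlap (log2 change -1.34, SE 0.22, adjusted p = 0.0018). Of 17 costimulatory receptors and ligands tested, Tnfrsf9 was called higher and these 3 ligands lower, with a median of -0.11. The shares over all genes tested were 2.29% higher and 2.24% lower. Tnfsf11, the RANK ligand, gave -1.08 (adjusted p = 0.052), and Tnfsf4, the OX40 ligand, -0.68 (adjusted p = 0.19). The receptors Cd28, Icos and Cd27 gave 0.02, -0.06 and 0.00, with adjusted p of 0.95, 0.87 and 0.99.

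**Figure D3:**
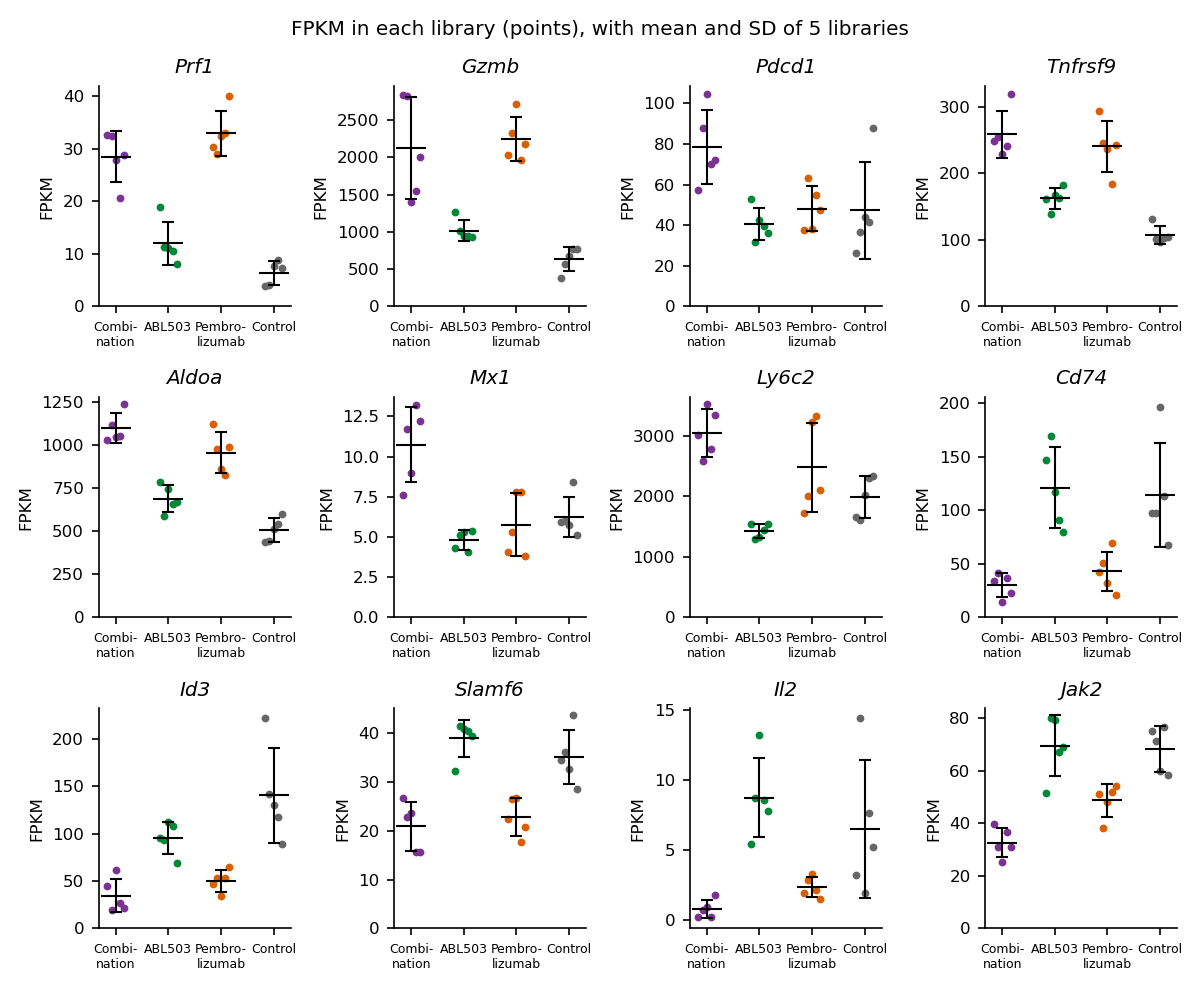
FPKM in each of the 20 libraries (points) for 12 genes, with the mean as a bar and the SD as whiskers (n = 5 per group). For Prf1, Gzmb, Pdcd1, Tnfrsf9, Aldoa, Mx1 and Ly6c2 all Combination libraries lie above all ABL503 libraries, and for Cd74, Id3, Slamf6, Il2 and Jak2 all lie below them.

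Enzymes of glycolysis, the pathway that activated T cells use for rapid sugar breakdown, were higher in the Combination. Of 17 tested, 8 rose and 0 fell, beside 2.29% higher and 2.24% lower over all genes tested. Positive changes were seen in 16 of the 17, with a median log2 change of 0.42. Aldoa, an aldolase, had 1030, 1117, 1046, 1050 and 1237 FPKM in the Combination libraries, against 784, 586, 745, 655 and 666 FPKM in the ABL503 libraries, without overlap (log2 change 0.68, SE 0.10, adjusted p = 0.0014). Pkm, pyruvate kinase, gave 0.71, SE 0.14, adjusted p = 0.0053, Gpi1, glucose phosphate isomerase, 0.56, SE 0.10, adjusted p = 0.0038, and Ldha, which makes lactate, 0.57, SE 0.11, adjusted p = 0.0066. The others called were Tpi1 (0.68, adjusted p = 0.014), Eno1 (0.55, adjusted p = 0.032), Gapdh (0.48, adjusted p = 0.0069) and Pgk1 (0.48, adjusted p = 0.020). Of these 8, Pgk1 was the one whose groups overlapped. Calls were lost with 1 library left out for Eno1 without Combination 2 or 5 or ABL503 2, 3, 4 or 5 (adjusted p up to 0.094) and Pgk1 without Combination 5 or ABL503 2, 4 or 5 (adjusted p up to 0.054), and without a filter on low values 5 of the 8 passed.

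Some hypoxia-responsive and lipid genes were called, beside 2.29% higher and 2.24% lower over all genes tested. Bnip3, a mitophagy receptor induced by low oxygen, had 47.4, 42.8, 39.6, 62.5 and 125 FPKM in the Combination libraries, against 31.7, 26.8, 19.5, 13.5 and 16.2 FPKM in the ABL503 libraries, and the groups did not overlap although Combination 5 stood far above the others (log2 change 1.44, SE 0.28, adjusted p = 0.0059). Egln1, an oxygen-sensing prolyl hydroxylase, gave 0.62, SE 0.13, adjusted p = 0.0084. These were the 2 of 16 hypoxia genes called higher, and 0 were called lower (median 0.14). Of 17 genes of fatty acid oxidation and lipid uptake, 2 rose and 0 fell (median 0.19), namely the mitochondrial thiolase Acaa2 (0.60, SE 0.12, adjusted p = 0.0055) and the long-chain acyl-CoA dehydrogenase Acadl (0.52, SE 0.10, adjusted p = 0.0066). None of 40 nuclear genes of oxidative phosphorylation (median 0.12) and none of 13 mitochondrially encoded genes (median -0.07) was called by limma. Of 20 cholesterol synthesis genes, 18 changes were negative and 1 was called, Cyp51 (-0.66, SE 0.16, adjusted p = 0.024), whose call ended when only the 10 libraries were fitted (adjusted p = 0.057). The call was lost too for Cyp51 without Combination 1, 3 or 5 or ABL503 2 or 3 (adjusted p up to 0.074).

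Part of the type I interferon response was higher. Of 25 genes tested, 6 rose and 0 fell, beside 2.29% higher and 2.24% lower over all genes tested. The median log2 change was 0.27, and 19 of the 25 changes were positive. Mx1, an antiviral GTPase, had 7.62, 11.8, 8.98, 13.2 and 12.2 FPKM in the Combination libraries, against 4.29, 5.14, 5.31, 4.04 and 5.39 FPKM in the ABL503 libraries, without overlap (log2 change 0.99, SE 0.18, adjusted p = 0.0043). Oas1a, an oligoadenylate synthetase that senses double-stranded RNA, had 7.42, 18.3, 9.74, 16.4 and 11.1 FPKM in the Combination libraries, against 5.87, 8.04, 2.40, 5.38 and 5.71 FPKM in the ABL503 libraries, with overlap through Combination 1 and ABL503 2 (log2 change 1.07, SE 0.25, adjusted p = 0.016). The other 4 were Xaf1 (0.85, SE 0.20, adjusted p = 0.020), the nucleic acid sensor Zbp1 (0.73, SE 0.18, adjusted p = 0.024), the exonuclease gene Isg20 (0.80, SE 0.21, adjusted p = 0.030) and Bst2, which encodes tetherin (0.46, SE 0.12, adjusted p = 0.026). With 1 library left out the calls were lost for Xaf1 without Combination 1 or 5 or ABL503 2 or 3 (adjusted p up to 0.059), Zbp1 without Combination 4 or ABL503 2, 3 or 4 (adjusted p up to 0.062), Isg20 without Combination 2, 4 or 5 or ABL503 2, 3 or 4 (adjusted p up to 0.079) and Bst2 without Combination 2 or 5 or ABL503 3 or 5 (adjusted p up to 0.076). The count fell to 3 without ABL503 2, ABL503 3 or Combination 5 and to 1 without a filter on low values. Among interferon-regulated genes outside the list, Epsti1 (0.90, SE 0.16, adjusted p = 0.0030), Lgals3bp (0.65, SE 0.14, adjusted p = 0.011) and Trim30a (0.60, SE 0.14, adjusted p = 0.019) were chosen after their values were seen. None of 16 GTPases induced by interferon gamma was called by limma (median 0.04). Among 19 genes of MHC class I and the immunoproteasome, the subunit gene Psmb9 rose (0.62, SE 0.12, adjusted p = 0.0055) and 0 fell.

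Promoters of this group are shown because interferon-induced genes are known for a repeated GAAA motif, the interferon-stimulated response element. Windows from 250 bases before to 50 bases after the start site of each gene were taken from RefSeq (GRCm38.p6) and searched for GAAANNGAAA or its reverse complement TTTCNNTTTC. It occurred in 1131 of 32851 windows (3.44%). A window was at hand for 4 of the 6 genes called higher, of which 2 held the motif, and for 14 of the 19 not called, of which 8 held it. The stretches around it in the 2 called genes follow, 5′ to 3′ on the strand of the gene, with the motif and its overlapping copies in capitals. Oas1a lies on the minus strand at chr5:120907526-120907585, with the motif starting 20 bases before the start site, and Bst2 on the minus strand at chr8:71537547-71537642, with the motif starting 130 bases before it.
Oas1a: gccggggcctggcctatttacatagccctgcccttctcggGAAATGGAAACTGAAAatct
Bst2: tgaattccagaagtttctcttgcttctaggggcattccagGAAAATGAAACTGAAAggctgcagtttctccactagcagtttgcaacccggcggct

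Genes of stem-like, naive and memory T cells were lower. Of 21 tested, 0 rose and 6 fell, beside 2.29% higher and 2.24% lower over all genes tested. Negative changes were seen in 17 of the 21, with a median log2 change of -0.58. Id3, an inhibitor of DNA-binding factors that memory precursors keep, had 44.2, 19.6, 61.1, 27.2 and 21.1 FPKM in the Combination libraries, against 95.2, 92.9, 112, 108 and 69.2 FPKM in the ABL503 libraries, without overlap (log2 change -1.55, SE 0.27, adjusted p = 0.0030). Slamf6, a surface receptor used to identify stem-like exhausted cells, had 26.8, 22.8, 23.7, 15.6 and 15.8 FPKM in the Combination libraries, against 32.4, 41.5, 41.0, 40.5 and 39.5 FPKM in the ABL503 libraries, without overlap (log2 change -0.89, SE 0.15, adjusted p = 0.0023). Ccr7, the receptor for lymph node entry, averaged 76.2 ± 25.5 FPKM in the Combination and 165 ± 30.6 FPKM in ABL503 (log2 change -1.15, SE 0.24, adjusted p = 0.0092), and S1pr1, which guides egress along the lipid sphingosine phosphate, 16.4 ± 6.52 FPKM in the Combination and 34.3 ± 8.62 FPKM in ABL503 (log2 change -1.06, SE 0.22, adjusted p = 0.010). The transcription factor genes Klf3 (-1.08, SE 0.23, adjusted p = 0.011) and Foxo1 (-0.58, SE 0.13, adjusted p = 0.016) were the others. Tcf7, which encodes TCF1, had 6.38, 2.10, 17.8, 11.6 and 9.54 FPKM in the Combination libraries, against 19.7, 12.1, 40.8, 27.4 and 24.5 FPKM in the ABL503 libraries, a lower mean with overlapping groups that missed the threshold (log2 change -1.43, SE 0.42, adjusted p = 0.053). Il7r, the receptor for the survival cytokine interleukin 7, gave -0.16, SE 0.20, adjusted p = 0.69. With weights for library quality 11 members were called lower instead of 6, and Foxo1 was lost when only the 10 libraries were fitted (adjusted p = 0.051).

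Calls among homing and adhesion genes were few. Of 22 tested, Ccr2 rose, and Ccr7, S1pr1 and Cxcr4 fell (median -0.07), beside 2.29% higher and 2.24% lower over all genes tested. Ccr7 and S1pr1 are also members of the stem-like list and were counted there. The genes given after Cxcr4 are outside the homing and adhesion list. Cxcr4, the receptor for CXCL12, averaged 11.04 ± 2.80 FPKM in the Combination and 19.92 ± 2.41 FPKM in ABL503 (log2 change -0.82, SE 0.18, adjusted p = 0.011). Cd7, a surface glycoprotein of T cells, averaged 52.0 ± 27.4 FPKM in the Combination and 129 ± 35.2 FPKM in ABL503, without overlap (log2 change -1.43, SE 0.27, adjusted p = 0.0050), and the tetraspanin Cd9 54.9 ± 16.3 FPKM in the Combination and 119 ± 10.7 FPKM in ABL503, also without overlap (log2 change -1.15, SE 0.16, adjusted p = 0.00049). Nt5e, the ectonucleotidase CD73, and Tgfbr1, a receptor chain for TGF-beta, were chosen after their values were seen, and gave -0.95, SE 0.22, adjusted p = 0.016 and -0.92, SE 0.15, adjusted p = 0.0023. Tsc22d1, a leucine zipper gene chosen in the same way, gave -1.39, SE 0.24, adjusted p = 0.0030. The call of Nt5e was lost without ABL503 2 (adjusted p = 0.053) and when only the 10 libraries were fitted (adjusted p = 0.071).

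Several secreted factors were lower. Il2, the T-cell growth factor interleukin 2, had 0.245, 0.709, 0.973, 0.238 and 1.82 FPKM in the Combination libraries, against 5.43, 8.74, 13.3, 8.57 and 7.83 FPKM in the ABL503 libraries, and every Combination library lay below every ABL503 library (log2 change -2.47, SE 0.34, adjusted p = 0.00049). Xcl1, a chemokine that attracts cross-presenting dendritic cells, had 142, 182, 112, 166 and 260.5 FPKM in the Combination libraries, against 286, 419, 306, 267 and 274 FPKM in the ABL503 libraries (log2 change -0.88, SE 0.20, adjusted p = 0.016). Il10, an anti-inflammatory cytokine, averaged 3.55 ± 2.40 FPKM in the Combination and 8.90 ± 3.38 FPKM in ABL503 (log2 change -1.21, SE 0.30, adjusted p = 0.024). These were the 3 of 17 effector cytokines and chemokines called lower, and 0 were called higher (median -0.06), beside 2.24% and 2.29% over all genes tested. Ifng, the cytokine interferon gamma, had 791, 972, 652, 982 and 1059 FPKM in the Combination libraries, against 693, 834, 978, 854 and 909 FPKM in the ABL503 libraries, with overlapping groups (log2 change 0.05, SE 0.17, adjusted p = 0.90). Cxcl10, a chemokine that recruits CXCR3-bearing T cells, had 45.5, 55.5, 60.4, 53.2 and 31.1 FPKM in the Combination libraries, against 100.1, 138, 119, 119 and 100.3 FPKM in the ABL503 libraries, without overlap (log2 change -1.24, SE 0.16, adjusted p = 0.00032). Calls were lost with 1 library left out for Xcl1 without ABL503 2 (adjusted p up to 0.053) and Il10 without Combination 4 or 5 or ABL503 2, 4 or 5 (adjusted p up to 0.075), and Il10 was lost when only the 10 libraries were fitted (adjusted p = 0.079).

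Some genes of the signalling and transcription lists were called, beside 2.29% higher and 2.24% lower over all genes tested. Jak2, a kinase of cytokine receptors, had 39.5, 30.8, 25.3, 36.5 and 30.9 FPKM in the Combination libraries, against 51.6, 80.1, 79.3, 67.2 and 68.9 FPKM in the ABL503 libraries (log2 change -1.07, SE 0.13, adjusted p = 0.00032), and was the only one of 17 JAK, STAT and SOCS genes called. Cd83, a surface protein and NF-kB target, averaged 11.1 ± 4.34 FPKM in the Combination and 37.4 ± 12.0 FPKM in ABL503 (log2 change -1.67, SE 0.26, adjusted p = 0.0016), and Rel, the NF-kB subunit c-Rel, 16.4 ± 2.04 FPKM in the Combination and 24.6 ± 3.49 FPKM in ABL503 (log2 change -0.55, SE 0.11, adjusted p = 0.0057). With Tnip1, an NF-kB inhibitor (-0.49, SE 0.14, adjusted p = 0.043), they were the 3 of 25 NF-kB genes called, all lower, while 23 of the 25 changes were negative (median -0.22). Myc, a growth-promoting transcription factor, averaged 16.0 ± 1.91 FPKM in the Combination and 31.2 ± 8.92 FPKM in ABL503 (log2 change -0.89, SE 0.24, adjusted p = 0.033) and was the 1 call among 14 transcription factors induced by the T-cell receptor (median -0.39). Mir155hg, the host transcript of miR-155, was chosen after its values were seen and averaged 64.2 ± 9.94 FPKM in the Combination and 116 ± 18.2 FPKM in ABL503 (log2 change -0.85, SE 0.16, adjusted p = 0.0052). Klf6 was the 1 call among 15 immediate early genes, and was higher (0.39, SE 0.11, adjusted p = 0.045). None of 19 genes of the receptor complex and its proximal kinases was called by limma (median 0.20). The calls that ended with 1 library left out were Tnip1 without Combination 1, 2, 3, 4 or 5 or ABL503 2, 3, 4 or 5 (adjusted p up to 0.12), Myc without Combination 2, 4 or 5 or ABL503 2, 3 or 5 (adjusted p up to 0.093) and Klf6 without Combination 2, 3, 4 or 5 or ABL503 1, 2, 3, 4 or 5 (adjusted p up to 0.11). Klf6 was also lost with equal sums and after quantile normalization (adjusted p = 0.10 in both), and Tnip1 when only the 10 libraries were fitted (adjusted p = 0.068).

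Some genes of cell death and survival, ribosome assembly and stress of the endoplasmic reticulum fell, beside 2.24% called lower over all genes tested. Fas, the death receptor, had 40.4, 42.3, 16.8, 30.3 and 30.2 FPKM in the Combination libraries, against 73.5, 74.3, 75.5, 71.7 and 56.5 FPKM in the ABL503 libraries, without overlap (log2 change -1.17, SE 0.20, adjusted p = 0.0030). Morrbid, a long non-coding RNA that restrains the death gene Bcl2l11, gave -0.55, SE 0.12, adjusted p = 0.0100, and the survival factor Mcl1 -0.32, SE 0.09, adjusted p = 0.049. These were the 3 of 16 genes of the BCL2 family and death receptors called, all lower (median -0.20). Gnl3, the nucleolar protein nucleostemin, averaged 31.8 ± 4.67 FPKM in the Combination and 52.9 ± 5.51 FPKM in ABL503 (log2 change -0.72, SE 0.12, adjusted p = 0.0017) and fell with Wdr43, a ribosome assembly factor (-0.45, SE 0.11, adjusted p = 0.025). They were 2 of 18 genes of MYC targets and ribosome biogenesis, with a median of -0.29. Hspa5, the chaperone BiP of the endoplasmic reticulum, fell (-0.40, SE 0.08, adjusted p = 0.0074), as did the stress transcription factor Xbp1 (-0.35, SE 0.10, adjusted p = 0.045), and the other 18 of 20 genes of that stress response were not called. The calls that ended with 1 library left out were Mcl1 without Combination 1, 2, 4 or 5 or ABL503 2, 3, 4 or 5 (adjusted p up to 0.11), Wdr43 without Combination 2 or 5 or ABL503 2, 3 or 4 (adjusted p up to 0.068) and Xbp1 without Combination 1, 2, 4 or 5 or ABL503 2, 3, 4 or 5 (adjusted p up to 0.11). Mcl1 was also lost under 5 other settings, with adjusted p of 0.05021 to 0.093, and Xbp1 under 4, with adjusted p of 0.051 to 0.097.

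Proliferation genes were not called in number, beside 2.29% higher and 2.24% lower over all genes tested. Mki67, a marker of cycling cells, had 8.98, 10.3, 6.97, 5.92 and 7.09 FPKM in the Combination libraries, against 8.23, 6.74, 7.84, 7.56 and 7.55 FPKM in the ABL503 libraries (log2 change 0.02, SE 0.17, adjusted p = 0.96). Of 27 genes of G2 and mitosis, 25 changes were positive with a median of 0.27, and none was called by limma. Of 29 genes of S phase and DNA replication, Slbp, the histone stem-loop binding protein, was called, and lower (-0.28, SE 0.07, adjusted p = 0.025), a call that ended for Slbp without Combination 4 or ABL503 2 or 4 (adjusted p up to 0.074). None of 40 ribosomal protein genes (median -0.11), 27 proteasome subunits (median 0.04), 19 cytokine receptors (median 0.02), 8 GIMAP GTPases (median 0.15) or 8 genes of metallothioneins and zinc handling (median -0.01) was called. Of 8 amino acid transporters, Slc38a2 was called, and lower (-0.51, SE 0.13, adjusted p = 0.026). The call was lost for Slc38a2 without Combination 2 or 5 or ABL503 2, 3 or 5 (adjusted p up to 0.077).

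Heat-shock chaperones, which fold other proteins and are induced by heat and other proteotoxic stress, were lower as a group. Of 18 tested, 0 rose and 10 fell, beside 2.29% higher and 2.24% lower over all genes tested. All 18 changes were negative, with a median log2 change of -0.47. Hsph1, a nucleotide exchange factor for chaperones, had 25.3, 27.4, 18.7, 28.2 and 38.7 FPKM in the Combination libraries, against 91.4, 117, 76.8, 48.3 and 61.5 FPKM in the ABL503 libraries, without overlap (log2 change -1.45, SE 0.24, adjusted p = 0.0023). Hspa8, the constitutive cytosolic chaperone, had 1561, 1427, 1510, 1397 and 1673 FPKM in the Combination libraries, against 2367, 2430, 2375, 1964 and 1954 FPKM in the ABL503 libraries, without overlap (log2 change -0.55, SE 0.10, adjusted p = 0.0035). The mitochondrial pair Hspe1 and Hspd1, which form the mitochondrial folding chamber, gave -0.95, SE 0.19, adjusted p = 0.0075, and -0.70, SE 0.14, adjusted p = 0.0056. The cytosolic Hsp90 genes gave -0.58, SE 0.10, adjusted p = 0.0040 for Hsp90aa1, and -0.39, SE 0.08, adjusted p = 0.0063 for Hsp90ab1. The co-chaperones Dnajb1 (-0.57, SE 0.11, adjusted p = 0.0052) and Dnaja1 (-0.39, SE 0.09, adjusted p = 0.016) fell too. The stress-inducible pair Hspa1a (-1.37, SE 0.33, adjusted p = 0.022) and Hspa1b (-1.21, SE 0.29, adjusted p = 0.022) have near-identical sequences, so their reads may have been shared.

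The 4 groups were set side by side for the leading members. Hsph1 averaged 27.7 ± 7.23 FPKM in the Combination, 79.1 ± 26.8 in ABL503, 38.1 ± 10.9 in Pembrolizumab and 24.4 ± 7.21 in Control, and Hspa8 averaged 1513 ± 110.3, 2218 ± 238, 1494 ± 230.1 and 1482 ± 81.5 FPKM in these 4 groups. Pembrolizumab against Control, which uses the 10 other libraries, gave a median of 0.14 over the 18 genes, with 2 called higher and 1 lower. The difference between the 2 comparisons was called for 5 of the 18, namely Hsp90ab1 (log2 change -0.73, SE 0.11, adjusted p = 0.0046), Hspd1 (log2 change -1.20, SE 0.19, adjusted p = 0.0088), Hsph1 (log2 change -2.09, SE 0.34, adjusted p = 0.012), Hspe1 (log2 change -1.43, SE 0.27, adjusted p = 0.034) and Hsp90aa1 (log2 change -0.75, SE 0.15, adjusted p = 0.034). Leaving out 1 library in the Combination against ABL503 ended the calls of Hspa1a without Combination 1 or ABL503 2 (adjusted p up to 0.069), Hspa1b without Combination 1 or ABL503 2 or 3 (adjusted p up to 0.068) and Dnaja1 without ABL503 2 (adjusted p up to 0.054). For the difference itself, Hsp90ab1, Hspd1 and Hsph1 kept their call without any 1 of the 20 libraries, Hspe1 lost it without 10 of them (adjusted p up to 0.077) and Hsp90aa1 without 14 (adjusted p up to 0.079).

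**Figure D4:**
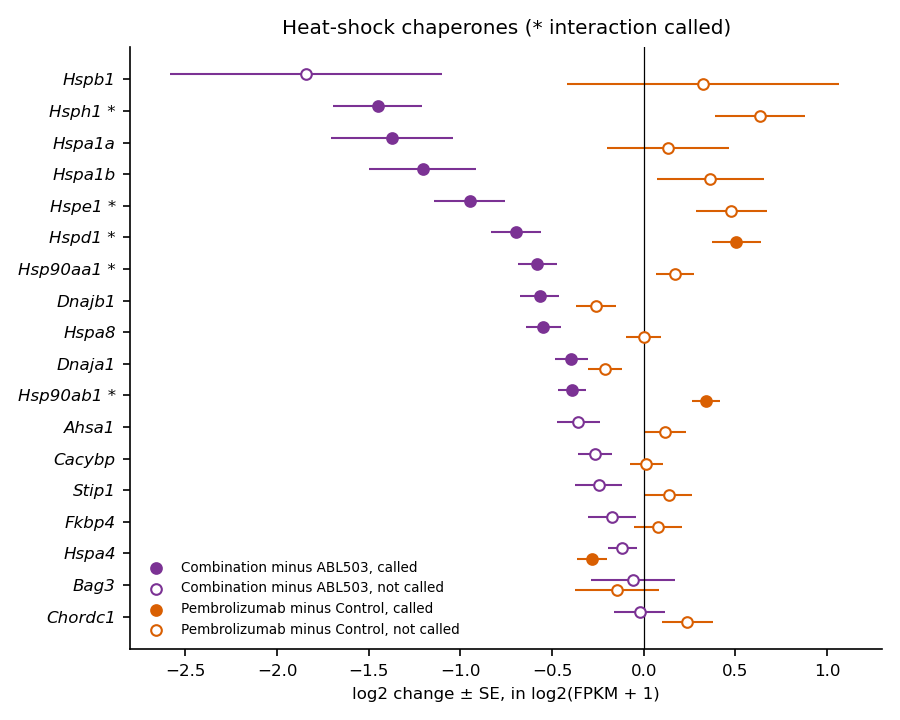
Log2 change with its SE for 18 heat-shock chaperones, in the Combination against ABL503 (purple) and in Pembrolizumab against Control (orange), with filled points for genes called at an adjusted p of 0.05. All 18 purple points lie below 0, and stars mark the 5 genes whose 2 changes differed.

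The heat-shock promoter is shown because heat-shock genes are known for a motif of alternating GAA and TTC units. GAANNTTCNNGAA or TTCNNGAANNTTC, its reverse complement, occurred in 198 of 32851 windows (0.603%). A window was at hand for 7 of the 10 genes that fell, and 3 of these held the motif (Hsph1, Hspe1 and Hspd1), while it was found in 1 of the 8 not called (Chordc1). Hspe1 and Hspd1 are neighbours transcribed in opposite directions and share the stretch shown, which lies on the plus strand at chr1:55088019-55088116 in GRCm38.p6, with the motif starting 89 bases before the start of Hspe1. Capitals mark both overlapping copies of the motif.
Hspe1: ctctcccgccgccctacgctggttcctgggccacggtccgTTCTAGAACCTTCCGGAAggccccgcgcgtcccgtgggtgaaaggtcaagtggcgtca

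Genes of MHC class II presentation, which antigen-presenting cells use to show peptides to CD4 T cells, headed the falls among the genes chosen for the size of their change. That choice left out receptor segments, numbered models and genes with a mean log2(FPKM + 1) under 3. Among the last were Il2 and Plaur, which fell more than Cd74. Cd74, the invariant chain, had 34.3, 41.8, 13.9, 36.5 and 22.9 FPKM in the Combination libraries, against 148, 169.6, 118, 90.8 and 79.5 FPKM in the ABL503 libraries, without overlap (log2 change -2.02, SE 0.32, adjusted p = 0.0018). H2-Aa, an alpha chain, had 5.60, 0.872, 1.00, 2.78 and 5.83 FPKM in the Combination libraries, against 25.4, 39.9, 38.5, 15.8 and 4.57 FPKM in the ABL503 libraries, where only ABL503 5 fell within the Combination's range (log2 change -2.52, SE 0.57, adjusted p = 0.015). These were the 2 of 8 tested called, both lower, beside 2.24% called lower over all genes tested, with a median of -1.18. Of the 8 changes, 6 were negative and 2 positive, namely H2-DMa (0.62, adjusted p = 0.27) and H2-Oa (0.03, adjusted p = 0.96). The count of calls was 1 without ABL503 2 and 4 without ABL503 5. H2-Ab1, the beta chain, averaged 12.0 ± 4.13 FPKM in the Combination and 43.3 ± 21.5 FPKM in ABL503 (log2 change -1.66, SE 0.48, adjusted p = 0.052). The sum over the 10 genes of the list was 48.6 to 83.9 FPKM in the Combination and 116.6 to 294 FPKM in ABL503. The call of H2-Aa without ABL503 2 (adjusted p up to 0.05017) was lost, and it was lost without a filter (adjusted p = 0.059).

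Markers of other cells mostly had negative changes too. Of 20 macrophage and monocyte markers 13 were tested, with a median of -0.39, and no gene among them but Ly6c2 and Ccr2 was called. Lyz2, the lysozyme of myeloid cells, had 0.848, 1.08, 0.884, 11.4 and 2.77 FPKM in the Combination libraries, against 20.8, 0.362, 10.6, 39.3 and 14.9 FPKM in the ABL503 libraries (log2 change -1.87, SE 0.95, adjusted p = 0.27), and Tyrobp, an adaptor of myeloid and NK receptors, gave -1.40, SE 0.43, adjusted p = 0.066. None of 6 dendritic cell markers tested was called by limma (median -0.11), while C1qa, Clec9a and the neutrophil genes Csf3r and Ly6g were at 0 in all 10 libraries. Ighm, the heavy chain of IgM, averaged 20.1 ± 4.10 FPKM in the Combination and 44.0 ± 10.4 FPKM in ABL503 (log2 change -1.08, SE 0.22, adjusted p = 0.0081), and Epcam, an epithelial adhesion molecule, 1.89 ± 0.556 FPKM in the Combination and 5.50 ± 1.33 FPKM in ABL503 (log2 change -1.17, SE 0.26, adjusted p = 0.013). None of 5 markers of CD4 and regulatory T cells and none of 5 NK-cell markers was called. In sorted bulk cells, fewer cells of a type and less RNA per cell cannot be told apart, and the part of these other cells in the falls was not tested.

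Further falls were found in genes with other functions. Timp2, a secreted inhibitor of metalloproteinases, had 4.86, 2.75, 3.64, 4.46 and 2.98 FPKM in the Combination libraries, against 8.95, 13.8, 17.4, 13.0 and 12.4 FPKM in the ABL503 libraries, without overlap (log2 change -1.57, SE 0.21, adjusted p = 0.00049). Car2, a carbonic anhydrase, averaged 8.54 ± 3.46 FPKM in the Combination and 26.9 ± 7.45 FPKM in ABL503 (log2 change -1.58, SE 0.25, adjusted p = 0.0016), and Cd24a, a surface glycoprotein of immature lymphocytes and myeloid cells, 5.02 ± 3.14 FPKM in the Combination and 18.7 ± 4.37 FPKM in ABL503 (log2 change -1.90, SE 0.39, adjusted p = 0.0082). Plaur, the urokinase receptor gene, which was chosen after its values were seen, had 4.43, 0.578, 3.33, 2.04 and 0.601 FPKM in the Combination libraries, against 15.4, 11.7, 10.9, 12.0 and 10.4 FPKM in the ABL503 libraries, without overlap (log2 change -2.20, SE 0.30, adjusted p = 0.00049). Among 190 V and J segments of the T-cell receptor alpha and beta chains, 0 were called higher and 7 lower. Over all 11794 genes the shares were 2.29% higher and 2.24% lower. Traj7, a joining segment chosen after its values were seen, had 0, 0.381, 1.72, 0.378 and 0.597 FPKM in the Combination libraries, against 24.6, 50.5, 43.2, 15.7 and 27.6 FPKM in the ABL503 libraries (log2 change -4.34, SE 0.73, adjusted p = 0.0023), the largest fall of any gene called. Trbv1, a beta-chain variable segment chosen in the same way, had 22.9, 9.73, 22.7, 4.73 and 4.05 FPKM in the Combination libraries, against 94.9, 50.3, 344, 58.3 and 23.6 FPKM in the ABL503 libraries (log2 change -2.76, SE 0.69, adjusted p = 0.025), with ABL503 3 far above the other libraries, and the call ended for Trbv1 without Combination 2, 4 or 5 or ABL503 3 (adjusted p up to 0.070). Such segments share sequence, and reads may have been shared between them.

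The same antibody without ABL503 gave a parallel comparison, Pembrolizumab against Control, in 10 libraries that the first comparison does not use. There 655 of 11794 genes passed (5.55%), 327 higher (2.77%) and 328 lower (2.78%). Without Pembrolizumab 1 the count was 383, without Control 1 it was 416, and without Control 4 it was 432. Of the 270 genes higher in the Combination against ABL503, 222 had a positive change in Pembrolizumab against Control and 83 were called higher there, which is 30.7% of the 270 and 25.4% of the 327. Of the 264 lower genes, 220 had a negative change and 53 were called lower, which is 20.1% of the 264 and 16.2% of the 328. Calls in opposite directions were found for 1 of the 270 and 2 of the 264. The counts of shared sign were not set beside the share over all genes tested. Among genes with the same call in both were Prf1, with a change of 1.22 beside ABL503 and 2.27 without it, and Gzmb, with 1.01 and 1.86. Tnfrsf9 gave 0.66 and 1.15, Aldoa 0.68 and 0.91, Id3 -1.55 and -1.43, and Cd74 -2.02 and -1.42. For none of these 6 was the difference between the 2 changes called, with adjusted p of 0.15 for Prf1, 0.24 for Gzmb, 0.25 for Tnfrsf9, 0.61 for Aldoa, 0.95 for Id3 and 0.70 for Cd74.

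Other groups stood side by side as follows. Of 25 type I interferon genes, 6 were higher and 0 lower in the Combination against ABL503, and 0 higher and 2 lower in Pembrolizumab against Control, with medians of 0.27 and -0.10. The difference was called for none of the 25, and Mx1 came closest among those named (log2 change 1.12, SE 0.26, adjusted p = 0.067). Of 21 cytotoxic molecules, 2 were called higher in the Combination against ABL503 and 7 in Pembrolizumab against Control, with medians of 0.30 and 0.58. Glycolysis genes gave 8 higher and 0 lower in both, with medians of 0.42 and 0.33. Stem-like genes gave 6 and 4 lower, with medians of -0.58 and -0.39. Pdcd1 was called in the Combination against ABL503 (0.92) and not in Pembrolizumab against Control (log2 change 0.12, SE 0.24, adjusted p = 0.85), and the difference was not called (log2 change 0.81, SE 0.33, adjusted p = 0.39).

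The difference between the 2 comparisons was called for 24 genes (0.203%), 5 more positive beside ABL503 (0.0424%) and 19 more negative (0.161%), and 1210 genes had an unadjusted p under 0.05. Of the 24, 13 were called in the Combination against ABL503 and 14 in Pembrolizumab against Control. The 24 rested on single libraries: the count was 6 without Pembrolizumab 1, 7 without Combination 3 or Pembrolizumab 5, 10 without ABL503 5 or Control 5, 11 without Combination 2, Combination 4 or ABL503 2, 12 without Control 3, 14 without Pembrolizumab 3 and 49 without Pembrolizumab 4. Lgals9, which encodes galectin-9, a ligand of TIM-3, had 125, 134, 133, 158 and 132 FPKM in the Combination libraries, against 88.0, 93.9, 80.0, 88.7 and 98.6 FPKM in the ABL503 libraries, and 74.6, 97.3, 89.1, 79.2 and 76.5 FPKM in the Pembrolizumab libraries, against 106, 90.2, 125, 109 and 112 FPKM in the Control libraries. It rose with pembrolizumab beside ABL503 (log2 change 0.59, SE 0.10, adjusted p = 0.0017) and fell with pembrolizumab alone (log2 change -0.38, SE 0.10, adjusted p = 0.025), a difference of 0.97 (SE 0.13, adjusted p = 0.0046). Zbtb32, a zinc-finger repressor of activated lymphocytes, averaged 33.1 ± 11.9 FPKM in the Combination and 25.9 ± 5.12 FPKM in ABL503, and 53.9 ± 12.4 FPKM in Pembrolizumab and 8.59 ± 2.44 FPKM in Control. Its change was 0.27 beside ABL503 and 2.52 without it (log2 change -2.25, SE 0.33, adjusted p = 0.0046 for the difference). Ier3, an immediate early gene that limits NF-kB, averaged 33.1 ± 4.49 FPKM in the Combination and 47.0 ± 7.61 FPKM in ABL503, and 70.5 ± 9.12 FPKM in Pembrolizumab and 32.5 ± 9.41 FPKM in Control, and its difference was -1.62 (adjusted p = 0.0046). Stat4, which carries interleukin 12 signals, averaged 118 ± 11.8 FPKM in the Combination and 111 ± 10.3 FPKM in ABL503, and 85.3 ± 7.97 FPKM in Pembrolizumab and 136 ± 13.8 FPKM in Control (log2 change 0.75, SE 0.13, adjusted p = 0.023 for the difference). Ovol2, a zinc-finger transcription factor, gave -0.73 and 0.90 (log2 change -1.63, SE 0.30, adjusted p = 0.031 for the difference). The call of the difference was lost for Stat4 without Combination 3 or Pembrolizumab 1 (adjusted p up to 0.052) and for Ovol2 without 7 of the 20 libraries (adjusted p up to 0.056).

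**Figure D5:**
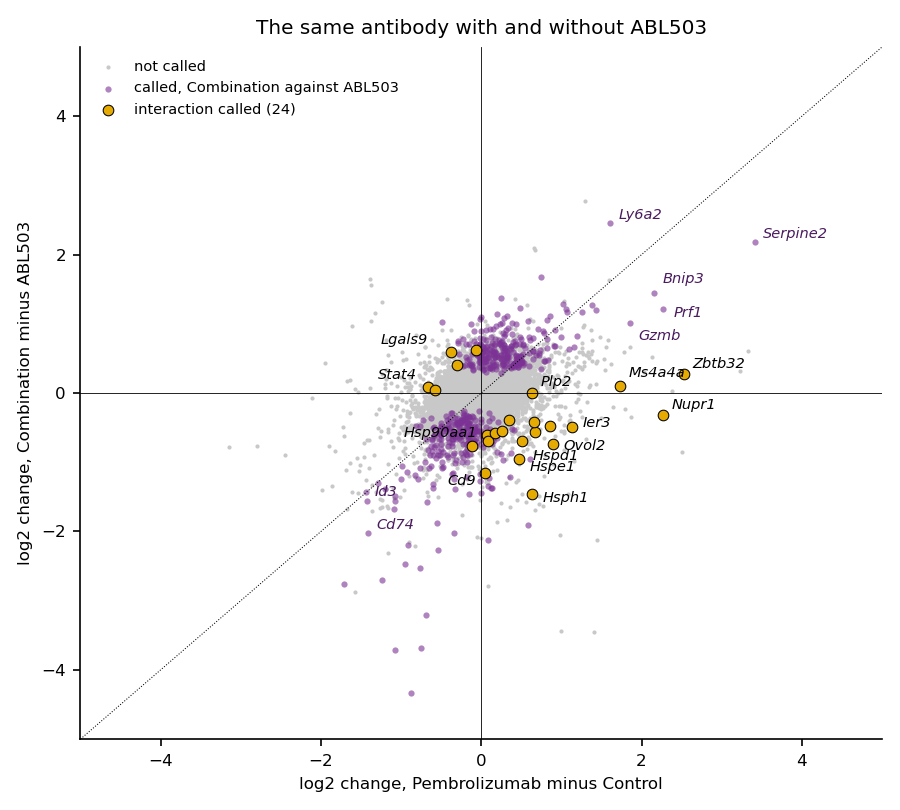
Log2 change of 11794 genes with pembrolizumab added to ABL503 (y axis, Combination minus ABL503) against that with pembrolizumab alone (x axis, Pembrolizumab minus Control), with the line of equal change dotted. Purple points are genes called in the Combination against ABL503, and the 24 yellow points are genes whose changes differed, from Lgals9 above the x axis to Hsph1 below it. Serpine2, Zbtb32 and Prf1 lie below the dotted line, and Ly6a2 lies above it.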

How the data were processed

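RNA of sorted CD8+ tumour-infiltrating T cells was made into libraries with the SMART-Seq v4 Ultra Low Input kit, per the labels. HISAT2 and StringTie, the GRCm38 and mm10 builds, are named in the submitters' processing notes, with no version. The deposited table holds 1 value per gene symbol and library. Its header names no unit, and the values were taken as the authors' FPKM because they are not whole numbers, their library sums differ and StringTie gives FPKM; read depth is unknown, so no interval from counts can be given. Values were used as deposited, as log2(FPKM + 1), so changes of low genes are understated. The fit covered genes that reached 1 FPKM in 5 or more libraries. It was made with limma 3.58.1 in R 4.3.3 as 4 group means over all 20 libraries, with a mean-variance trend, and p-values were adjusted (Benjamini-Hochberg, two-sided) over 11794 genes with a threshold of 0.05. Every adjusted p in the text is limma's. The fit was tested on simulated data. Tables and plots were made with Python 3.11.15, pandas 2.3.3 and matplotlib 3.10.9.

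Columns were matched to samples by name. The 2 comparisons and their difference were contrasts of the same fit. Named genes were the 14 largest rises and 14 largest falls whose mean log2(FPKM + 1) reached 3 (without numbered models, pseudogenes, small RNAs and receptor segments), up to 4 members of each of 43 lists by smallest p, a panel of 17 genes, and up to 8 genes of the difference. Other genes named, among them Klf3, Foxo1, Hspa1a, Dnaja1, Hspe1, Tpi1, Gapdh, Pgk1, Eno1, Isg20, Bst2, Nkg7, Gzmk, Lag3, Tigit, Ctla4, Entpd1, Tnfsf11, Tnfsf4, Cd28, Icos and Cd27, were picked once their values were known. The members and lists were chosen with earlier results of these data known. Alternatives tried were another pseudocount, no filter or a stricter one, quantile normalization, equal sums, library weights, the replicate number as a block, a fit of the compared groups alone and leaving out each library.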

Additional observations from a re-analysis of the deposited data

Results flagged for a closer look

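In 238 groups of 5 libraries behind the named genes, 9 values stood apart from the other 4 of their group. About 1 in 20 groups would be flagged by chance if the groups were independent. Values of the same library need not be independent, so no conclusion is drawn from the share. In ABL503 1 the values apart were Gzmb at 1266 FPKM, Pfn1 at 1855 FPKM and Pgk1 at 329 FPKM, each above the other 4 ABL503 libraries and so nearest to the Combination. Slamf6 at 32.4 FPKM and Rel at 18.6 FPKM in ABL503 1 were each below the other 4. Without ABL503 1, 747 genes were called in the Combination against ABL503, beside 534 with it. Fas stood below the others in ABL503 5 at 56.5 FPKM, and Epcam above them in ABL503 3 at 7.83 FPKM. In the Combination, Tnip1 in library 2 (25.7 FPKM) and Nt5e in library 3 (11.8 FPKM) stood apart. The cause was not tested.

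The change with pembrolizumab differed between the presence and absence of ABL503 in 19 named genes, by limma's test of the difference between Combination minus ABL503 and Pembrolizumab minus Control. The difference in log2 change was positive for Lgals9 (0.97), Stat4 (0.75), Limd2 (0.70), Rab8a (0.68) and Mob2 (0.62). Among heat-shock chaperones it was -2.09 for Hsph1, -1.43 for Hspe1, -1.20 for Hspd1, -0.75 for Hsp90aa1 and -0.73 for Hsp90ab1. It was -2.60 for Nupr1, -2.25 for Zbtb32, -1.63 for Ovol2, -1.63 for Ms4a4a, -1.62 for Ier3, -1.24 for Stard10, -1.20 for Cd9, -1.08 for Mrps6 and -0.63 for Plp2. With pseudocount 0.1 the difference of Nupr1 was -5.58 and no longer called (adjusted p = 0.083). Leaving out 1 of the 20 libraries in turn ended the call for Plp2 15 times, for Hsp90aa1 and Mrps6 14 times, for Rab8a, Ms4a4a and Stard10 13 times, for Mob2 and Nupr1 12 times, for Hspe1 10, Cd9 8, Ovol2 7, Limd2 6 and Stat4 2 times, and 0 times for Lgals9, Ier3, Zbtb32, Hsp90ab1, Hspd1 and Hsph1. Limd2, Rab8a, Mob2, Nupr1, Ms4a4a, Stard10, Mrps6 and Plp2 were chosen after their values were seen.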

How the results depend on the processing

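None of the named genes called in the Combination against ABL503 changed direction there under the alternatives run, left-out libraries included. A change of sign under at least 1 of them was seen for 11 named genes without a call (adjusted p of 0.70 to 0.98), among them Tox, Ifng, Mki67 and Havcr2. In the Combination against ABL503, the main fit called 270 genes higher and 264 lower. Weights for library quality called 470 and 465, no filter on low values 124 and 147, and a fit of the compared groups alone 210 and 169. In Pembrolizumab against Control, no filter called 176 higher and 145 lower and the compared groups alone 215 and 180. For the difference between the comparisons, library weights called 17 more positive and 33 more negative, no filter 1 and 5, and 12, 8 and 3 were more positive with the stricter filter, with quantile normalization and with the replicate block. Leaving out 1 library gave 132 to 344 higher and 131 to 403 lower genes in the Combination against ABL503, 204 to 385 and 173 to 321 in Pembrolizumab against Control, and 1 to 13 and 5 to 36 for the difference. With equal sums the calls were 203 higher and 306 lower. Of 109 named genes called in the Combination against ABL503, 73 kept their call without any 1 library, and 36 lost it at least once. No filter, which adjusts over more genes, ended 36 of the 109, among them Pdcd1 (adjusted p = 0.099), Myc (0.11), Xcl1 (0.058), Oas1a (0.056), Hspa1a (0.076), Hspa1b (0.073), Eno1 (0.10), Pgk1 (0.057) and Tpi1 (0.05043). It also ended 14 of the 19 named differences, and pseudocount 0.1 ended those of Plp2 (adjusted p = 0.052) and Nupr1 (-5.58, adjusted p = 0.083, beside -2.60). The compared groups alone ended 17 of the 109, quantile normalization 5, the replicate block 5, equal sums 3, pseudocount 0.1 ended 1, and the other settings 0. Among the 17 were Nt5e (adjusted p = 0.071), Oas1a (0.056), Slc38a2 (0.068), Wdr43 (0.056), Adam8 (0.054), Slbp (0.055) and Bhlhe40 (0.12). Bhlhe40 was also lost after quantile normalization (adjusted p = 0.052). The cause was not tested. The labels do not say whether replicate numbers pair the libraries, and the few values at hand cannot settle it. The deviations of same-numbered Combination and ABL503 libraries correlated between -0.003 and 0.10, and 2 of 5 correlated best with their own number. Over all pairs of groups, such correlations ran from -0.15 to 0.11. With the replicate block 259 genes were higher and 253 lower in the Combination against ABL503, and it ended the calls of Bhlhe40, Tnfsf9, Xbp1, Mcl1 and Pfn1 and the differences of Mob2, Ms4a4a, Nupr1, Plp2, Rab8a and Stard10. Depth is unknown, so a change that was missed cannot be set against the reads behind it.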
